A study of Mus musculus with 4 samples.

Results

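Of the 768 wells of replicate 1, 361 (47.0%, 95% exact binomial interval 43.4 to 50.6) held reads of mural cell genes together with reads of endothelial genes. These mixed wells were chosen by their own counts, out of 1536 wells in the whole series. A mixed well had at least 600 reads on genes, between 500 and 8000 detected genes, reads of 2 or more of the endothelial genes *Pecam1*, *Cdh5* and *Kdr*, and 300 CPM or more of *Pdgfrb* or *Kcnj8*. CPM are read counts scaled to the same total over genes in every well. They were set beside 338 comparison wells of the same plates, which met the same limits on reads and endothelial genes and in which *Pdgfrb*, *Kcnj8*, the lymphatic genes *Lyve1* and *Prox1* and the leukocyte gene *Ptprc* were each below 100 CPM. A further 66 wells met the limits on reads and endothelial genes but fell in neither class. Of these, 52 held 100 to 300 CPM of the higher of *Pdgfrb* and *Kcnj8*, and the rest held 100 CPM or more of *Lyve1*, *Prox1* or *Ptprc*. Another 3 wells had over 8000 genes.

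Mural cells, the pericytes of capillaries and the smooth muscle cells of larger vessels, sit on the outer face of the endothelial tube within a shared basement membrane. Endothelial platelet-derived growth factor B recruits them through the receptor PDGFRβ, and Notch signals from the endothelium act on their receptor Notch3. Pericytes of many organs carry an ATP-sensitive potassium channel that lowers their excitability, whereas smooth muscle cells are known for actin and myosin of the contractile type.

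All wells came from the ear dermis of adult wild-type female C57Bl/6 mice, which the labels give as 12 to 26 weeks old and the study's methods give as a younger, overlapping range. Cells of 6 mice were pooled for a replicate, dissociated with collagenase, and sorted as CD31+/CD45-/Lyve1- events that the labels name blood vascular endothelial cells (BECs). Libraries were made with Smart-seq2, a full-length single-cell method, on 2 plates of 384 wells for each of 2 replicates. No animal was treated or genetically modified, so the groups compared here are classes of wells and not conditions. The plates of a replicate share a pool of mice, and the labels do not say whether the replicates share animals. No test was made because the wells were chosen on the same counts and the plates are not separate animals. Differences are therefore given for each plate as log2((mean CPM of mixed wells + 1)/(mean CPM of comparison wells + 1)), with replicate 2 alongside.

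Wells of replicate 1 held a median of 161838 reads on genes (range 6697 to 827686), compared to 41219.5 (1143 to 569668) in replicate 2. The median number of genes with a read was 4930 and 2074, respectively. Well names shared between the count files numbered 0. The number of cells in a well was not measured, and beyond the limit of 8000 genes no doublet calling was done. Intervals are for shares of wells and cover counting error only, since the wells of a replicate come from a shared pool of mice. Amplified reads without molecular identifiers are not independent molecules.

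Mixed wells were spread over both plates of replicate 1. Plate A held 187 (48.7%, 43.6 to 53.8) and plate B 174 (45.3%, 40.3 to 50.4). Every row of a plate held 6 to 15 of them among its 24 wells, and every column 2 to 12 among its 16. On plate A 46.3% of the wells directly right of a mixed well were mixed too, compared to 50.8% of those right of another well, and on plate B the shares were 39.5% and 49.3%. A mixed well was thus no more frequent next to another mixed well. In replicate 2 the same rule found 38 mixed wells (4.95%, 3.52 to 6.73), 19 on each plate, and 363 comparison wells. Another set of wells held at least 300 CPM of *Pdgfrb* or *Kcnj8* but lacked reads of at least 2 of the 3 endothelial genes. Replicate 2 had 29 of these (3.78%) and replicate 1 had 0 of 768, with an upper exact binomial limit of 0.479%.

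The choice rested on *Pdgfrb* and *Kcnj8*, whose values are a description of the rule. *Pdgfrb* encodes the platelet-derived growth factor receptor β that holds mural cells to the vessel, and *Kcnj8* encodes Kir6.1, the pore of the vascular ATP-sensitive potassium channel. *Pdgfrb* had a lowest, median and highest value of 0, 923 and 4844 CPM in mixed wells, and of 0, 17.9 and 86.3 CPM in comparison wells. *Kcnj8* had 0, 1545 and 9414 CPM in mixed wells and 0, 31.5 and 96.6 CPM in comparison wells. Both genes passed 300 CPM in 258 mixed wells (71.5%), *Kcnj8* alone in 65 (18%) and *Pdgfrb* alone in 38 (10.5%).

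The rule set the classes apart by the higher of the pair of values. This was below 30 CPM in 134 wells, 30 to 100 CPM in 218, 100 to 300 CPM in 52, 300 to 1000 CPM in 80, 1000 to 3000 CPM in 211 and at least 3000 CPM in 70. The bins on either side of the limit thus held 52 and 80 wells, and the wells nearest to it held 320, 321 and 332 CPM inside and 286, 292 and 297 CPM outside. Low levels of both genes were nevertheless present in nearly every comparison well. *Kcnj8* was read in 328 of 338 (97.0%) and *Pdgfrb* in 313 (92.6%), at a mean of 1.98% and 2.01% of the mixed mean.

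**Figure D1:**
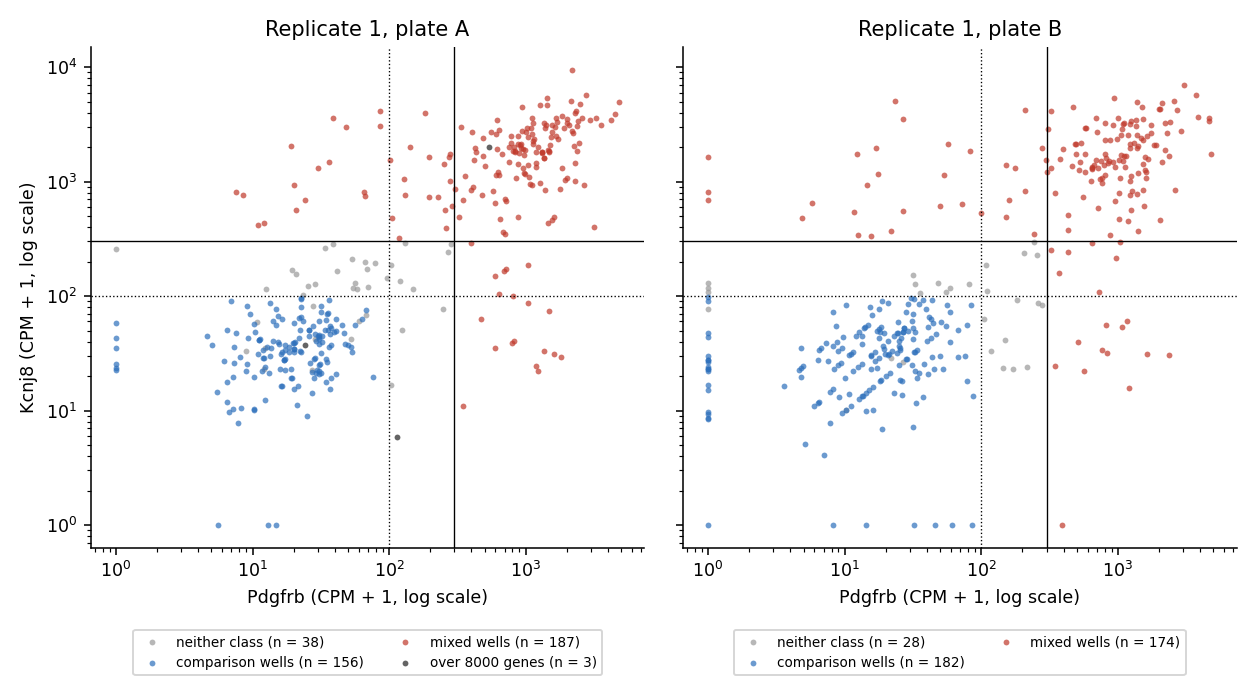
Level of *Kcnj8* against *Pdgfrb* in each well of plates A and B of replicate 1, in CPM + 1 on log axes, coloured by class; solid lines mark 300 CPM and dotted lines 100 CPM. Of the 361 mixed wells, 258 lie beyond 300 CPM on both axes, and the comparison wells lie below 100 CPM on both axes by the rule, with medians of 17.9 CPM of *Pdgfrb* and 31.5 CPM of *Kcnj8*.

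The label was checked with *Rgs5*, *Notch3* and *Acta2*, mural markers that the rule did not read, though in the same wells. *Rgs5*, a regulator of G protein signalling that is abundant in pericytes, had a lowest, median and highest value of 42.8, 3710 and 13545 CPM in mixed wells. In comparison wells the values were 6.21, 148 and 7041 CPM, so the classes overlapped at the upper end. At least 300 CPM of *Rgs5* was found in 357 mixed and 121 comparison wells. *Notch3*, the Notch receptor of mural cells, had 0, 239 and 3103 CPM in mixed wells and 0, 6.25 and 1317 CPM in comparison wells, with 159 and 7 wells at 300 CPM or more. *Acta2*, smooth muscle α-actin, had 0, 284 and 8252 CPM in mixed wells and 0, 29.4 and 4803 CPM in comparison wells, with 179 and 17 wells at 300 CPM or more. All 3 markers were thus higher in mixed wells, *Rgs5* in nearly all of them and *Notch3* and *Acta2* in fewer.

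The plate means of the markers followed the same order. The mean of *Rgs5* was 4293 against 812 CPM on plate A and 3896 against 889 CPM on plate B, log2 differences of 2.40 and 2.13. The differences were 4.35 and 3.65 for *Notch3* and 3.98 and 2.68 for *Acta2*. Replicate 2 gave 5.13 and 4.08 for *Rgs5*, 5.55 and 4.73 for *Notch3* and 4.04 and 4.74 for *Acta2*. In replicate 2 the mixed wells were fewer, and *Kcnj8* was read in 21 and *Pdgfrb* in 32 of 38.

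Depth differed between the classes, with a median of 196576 reads in mixed and 142614 in comparison wells. Every well was therefore also thinned to 20000 reads, which left out 7 mixed wells and 1 comparison well and kept 354 and 337. After thinning *Rgs5* was read in 99.7% of mixed and 91.4% of comparison wells, compared to 100% of both before. *Notch3* was read in 77.7% and 15.7% (93.4% and 66.9% before thinning), *Abcc9* in 88.7% and 27.9% (96.1% and 82.0%), and *Acta2* in 70.6% and 45.4% (97.0% and 95.9%). A share of wells with a read thus separated the classes less than the level did, most of all before thinning.

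Since *Pecam1*, *Cdh5* and *Kdr* served to choose the wells, their detection was fixed by the choice and their levels are a description. *Pecam1*, which encodes the sorted antigen CD31, had a lowest, median and highest value of 47.7, 2000 and 6579 CPM in mixed wells and 33.0, 2950 and 7469 CPM in comparison wells. At least 1000 CPM of *Pecam1* was present in 292 of 361 mixed wells, whereas 8 held below 100 CPM. *Cdh5*, encoding VE-cadherin, had a median of 204 CPM in mixed and 368 CPM in comparison wells, with 110 and 55 wells below 100 CPM. *Kdr*, encoding VEGF receptor 2, had a median of 292 and 385 CPM, with 110 and 103 wells below 100 CPM. Reads of all 3 genes were found in 351 mixed wells. After thinning, a read of at least 2 of the 3 remained in 335 of 354 mixed wells (94.6%) and 333 of 337 comparison wells (98.8%), and 0 wells of either class had none.

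Further endothelial genes outside the rule had the same shape. *Cldn5*, the tight junction protein claudin-5, had a lowest, median and highest value of 6.04, 712 and 5304 CPM in mixed wells and 4.82, 791 and 8251 CPM in comparison wells. *Egfl7*, a secreted endothelial protein, had a median of 1306 against 2193 CPM, and *Esam*, an endothelial adhesion molecule, 1417 against 1861 CPM. The mixed median was 90.0% of the comparison median for *Cldn5*, 76.2% for *Esam*, 76.0% for *Kdr*, 67.8% for *Pecam1*, 59.6% for *Egfl7* and 55.3% for *Cdh5*. The median of each gene was below that of the comparison wells on the CPM scale, and *Cldn5* was below 100 CPM in 67 mixed and 77 comparison wells.

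The list of 39 pan-endothelial genes without *Pecam1*, *Cdh5* and *Kdr* summed to a median of 19386 CPM in mixed wells and 29693 CPM in comparison wells. A total of 301 mixed wells held at least 50% of the comparison median, 12 held more than it, and 0 exceeded the 95th percentile of the comparison wells. On CPM, 38 of the 39 genes were lower on both plates and 0 differed by 2-fold (of all genes measured, 5.13% were at least 2-fold higher and 0.803% lower on both plates), with log2 differences of the summed CPM of -0.62 and -0.59. Per read of the ERCC spike-in, a set of 92 synthetic RNAs added to each well, the same sum differed by 0.02 and -0.08, and 9 of the genes were higher and 13 lower on both plates. Here and below, differences per spike-in read use counts summed over the wells of a class, whereas CPM differences use means of wells. Summed counts without the spike-in gave a mean difference of -0.57 over the plates. The endothelial genes were thus lower as a share of the reads but not per spike-in read. Per spike-in read the median of all genes was 0.61 and 0.48, so relative to that median the endothelial list stayed below the rest. In these wells fewer cells of a type and less RNA per cell cannot be told apart.

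**Figure D2:**
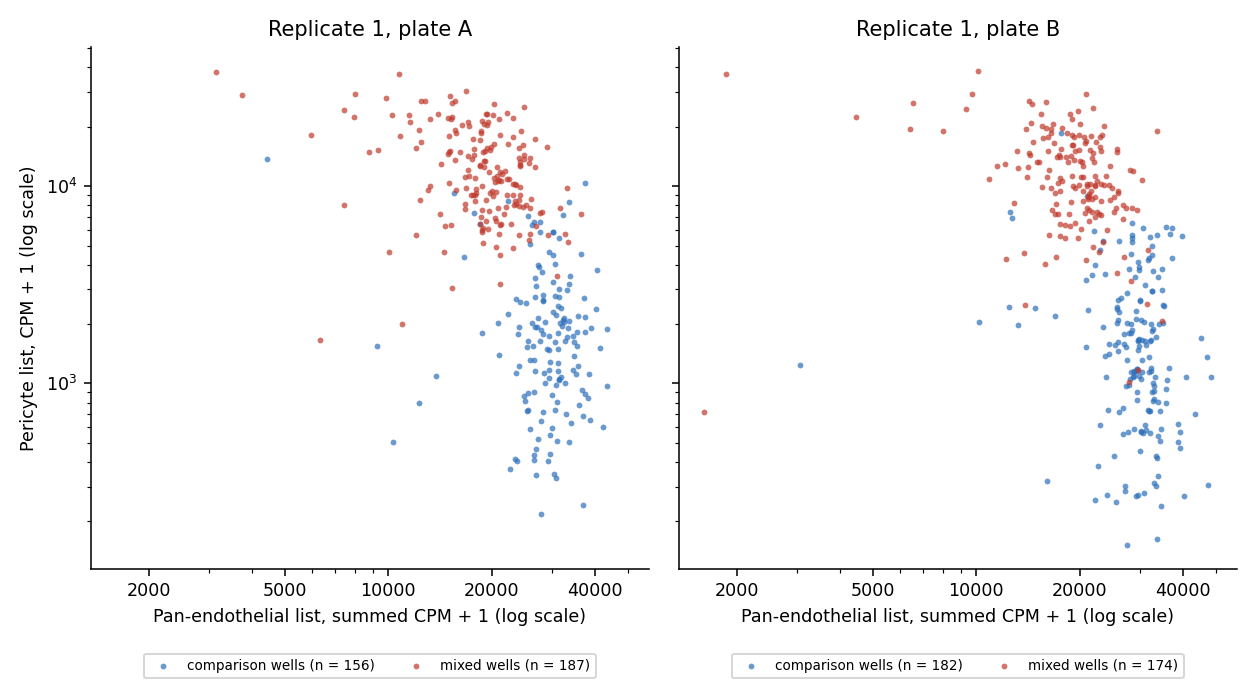
Summed level of the pericyte list without *Pdgfrb* and *Kcnj8* against that of the pan-endothelial list without its gate genes in each well of plates A and B of replicate 1, in CPM + 1 on log axes, coloured by class. The median pericyte sum is 11170 CPM in mixed and 1575 CPM in comparison wells, while the endothelial sums overlap, with medians of 19386 and 29693 CPM.

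Mixed wells held more RNA relative to the spike-in. The median was 479 reads on genes per ERCC read in mixed wells and 318 in comparison wells. On plate A the medians were 509 and 311, a ratio of 1.64, and on plate B 454 and 324, a ratio of 1.4. In replicate 2 the medians were 89.0 and 58.6 over both plates, with 74.5 and 66.5 on plate A and 105 and 50.8 on plate B. A well of the mixed class thus yielded more gene reads for the same spike-in on every plate, although the quartiles of the classes overlapped.

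More genes were also detected in mixed wells at equal depth. After thinning to 20000 reads the median was 3037 genes in mixed and 2430 in comparison wells, with 3005 and 2310.5 on plate A and 3079 and 2504 on plate B. Without thinning the medians were 5363 and 4540. The mitochondrial share of reads was alike in both classes, with medians of 1.76% and 1.68%.

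**Figure D3:**
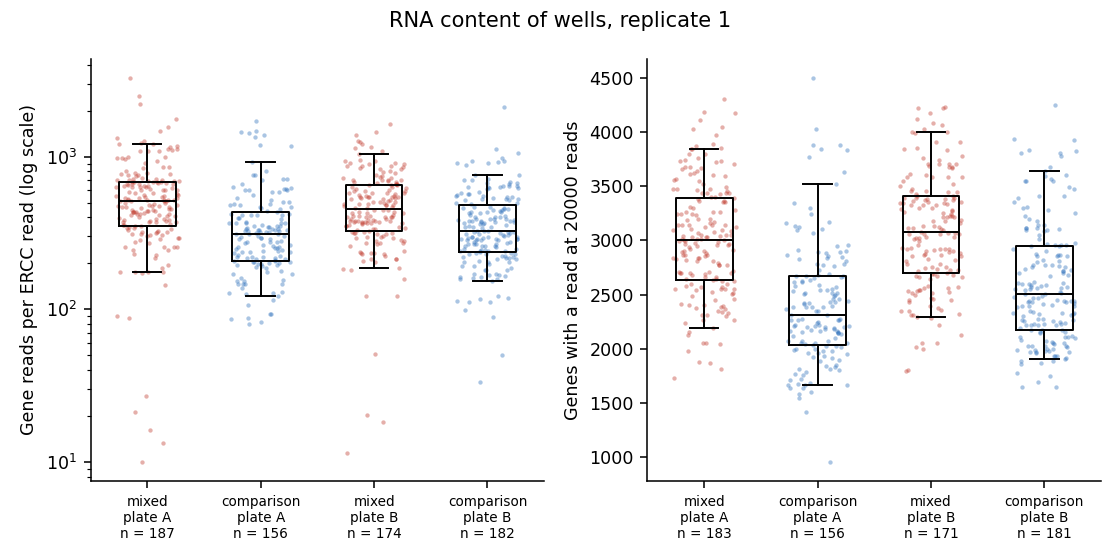
Reads on genes per ERCC read (left) and genes with a read after thinning each well to 20000 reads (right) by class and plate of replicate 1; boxes span the quartiles with the median inside and whiskers reach the 5th and 95th percentiles. Median reads per ERCC read are 509 against 311 on plate A and 454 against 324 on plate B, and the boxes of mixed wells sit higher in both panels.

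Over all genes, mixed and comparison wells differed in few genes by 2-fold. Of 9837 genes with a mean of at least 10 CPM over the classes, 505 (5.13%) were at least 2-fold higher in mixed wells on both plates and 79 (0.803%) at least 2-fold lower. The median difference of all these genes was 0.003 on plate A and 0.02 on plate B. Scaled to spike-in reads, the split of 505 higher to 79 lower became 1023 to 15. A gene could pass the limit of 10 CPM through the mixed wells alone, so counts of list members among measured genes describe the list and support nothing. In replicate 2, of 9793 genes, 763 (7.79%) were at least 2-fold higher and 1581 (16.1%) at least 2-fold lower. Among 8802 genes measured in both replicates, 270 were higher in both, which was 62.9% of the 429 of replicate 1 and 43.8% of the 617 of replicate 2. Lower genes were shared less, with 26 in both, 49.1% of the 53 of replicate 1 and 1.81% of the 1434 of replicate 2.

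The highest differences were led by the rule genes and by genes known in mural cells. After *Kcnj8* and *Pdgfrb* came *Kcne4*, a potassium channel subunit, with 232 against 5.58 CPM on plate A and 257 against 4.77 CPM on plate B. Others among the 25 highest were *Avpr1a*, the vasopressin receptor 1A, *Heyl*, a Notch target gene, *Vtn*, encoding vitronectin, *Cd248*, encoding endosialin, *Steap4*, a metalloreductase, *Ednra*, the endothelin receptor A, and *Agtr1a*, an angiotensin II receptor. *Arhgef17* had differences of 5.01 and 5.21, and *Ephx3*, an epoxide hydrolase, 5.31 and 5.10. *Parm1*, *Vstm4*, *Olfr558*, *P2ry14*, *Plxdc1*, *Enpep*, *Pla1a*, *Tmem273*, *Rasl12*, *Ebf2*, *Pde1b*, *Lin7a* and *Foxs1* completed the list. In replicate 2 the difference was 3.73 and 4.57 for *Arhgef17* and 6.11 and 5.54 for *Ephx3*, whereas *Pde1b* had 0 and -0.04. Of the 23 genes besides the rule genes, 20 were at least 2-fold higher on both plates of replicate 2, and *Pde1b*, *Pla1a* and *Tmem273* were not. No lower limit on CPM was applied in replicate 2 for this count, and a difference of 0 is also what a gene without reads gives.

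Pericyte genes were higher in mixed wells on both plates. Of 33 listed genes besides *Pdgfrb* and *Kcnj8*, 30 were measured and 28 of these were at least 2-fold higher on both plates, 0 lower, beside 5.13% higher and 0.803% lower of all genes. Their median difference was 3.63. The summed level was 13275 against 2275 CPM on plate A and 12438 against 2099 CPM on plate B, differences of 2.54 and 2.57. Replicate 2 gave 3.53 and 3.02. In single wells the sum exceeded the comparison median in 358 of 361 mixed wells and the 95th percentile of comparison wells in 314, whereas 2 of 338 comparison wells exceeded the mixed median.

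*Abcc9* encodes SUR2, the regulatory subunit that assembles with Kir6.1 into the vascular potassium channel, and was not part of the rule. Its lowest, median and highest values were 0, 504 and 3157 CPM in mixed wells and 0, 12.5 and 1915 CPM in comparison wells. At least 300 CPM was found in 235 mixed wells and 5 comparison wells. The plate means were 725 against 41.9 CPM and 646 against 22.2 CPM, differences of 4.08 and 4.80. *Kcnj8* and *Abcc9* are neighbours on the minus strand of chromosome 6 (GRCm38), at 142564837 to 142571614 and 142587862 to 142702315, with 16247 bases and 0 protein-coding genes between them. Across mixed wells *Abcc9* was the gene most like *Kcnj8*, with Spearman correlations of 0.61 on plate A (n = 187) and 0.54 on plate B (n = 174). Wells of a plate share a library pool and the CPM total, and the correlations are a description. Because the 2 genes are neighbours with like levels across wells, the 250 bases before each RefSeq start (GRCm38.p6, minus strand, chr6:142571615-142571864 and chr6:142702275-142702524) are shown.
Kcnj8: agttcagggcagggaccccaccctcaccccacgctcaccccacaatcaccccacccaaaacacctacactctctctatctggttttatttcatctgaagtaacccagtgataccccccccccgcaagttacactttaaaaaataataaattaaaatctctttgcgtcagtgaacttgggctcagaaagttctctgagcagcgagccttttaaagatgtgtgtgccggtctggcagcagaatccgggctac
Abcc9: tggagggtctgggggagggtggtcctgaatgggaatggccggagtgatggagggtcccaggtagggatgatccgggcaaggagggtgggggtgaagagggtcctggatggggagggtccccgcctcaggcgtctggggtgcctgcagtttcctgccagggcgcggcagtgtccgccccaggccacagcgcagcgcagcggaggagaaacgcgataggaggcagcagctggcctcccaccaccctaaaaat
The windows differed in base composition, with 49.2% G and C for *Kcnj8* and 66.8% for *Abcc9*. Both were searched on both strands for the CArG box, the site of serum response factor (CC, then 6 bases that are each A or T, then GG), and neither held it, which says only that these letters are not in these windows.

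The other pericyte genes included matrix, enzyme and signalling genes. *Vtn* had a lowest, median and highest value of 0, 501 and 5835 CPM in mixed wells and 0, 15.4 and 939 CPM in comparison wells. *Steap4* had 0, 701 and 6573 CPM in mixed wells and 0, 20.3 and 1561 CPM in comparison wells. *Heyl* had plate means of 250 against 4.69 CPM and 241 against 6.81 CPM, with a median of 18 CPM in mixed wells and 0 in comparison wells. *Vtn* and *Steap4* were thus high in most mixed wells, while *Heyl* was high in fewer.

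Among the remaining members, *Rgs4*, a regulator of G protein signalling, had 636 against 36.1 CPM on plate A and 529 against 32.6 CPM on plate B. *Enpep*, aminopeptidase A, had 204 against 7.0 CPM and 189 against 5.86 CPM. *Foxs1*, a forkhead factor, had 130 against 3.24 CPM and 162 against 6.83 CPM. The list also had members that the comparison wells carried. *Mcam*, the adhesion molecule CD146, had 755 against 562 CPM and 656 against 456 CPM, and *Ebf1*, a transcription factor, 340 against 263 CPM and 290 against 196 CPM. *Pdlim3*, a muscle LIM protein, was higher in replicate 1, with 1.39 and 1.93, and lower in replicate 2, with -5.10 and -4.13.

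**Figure D4:**
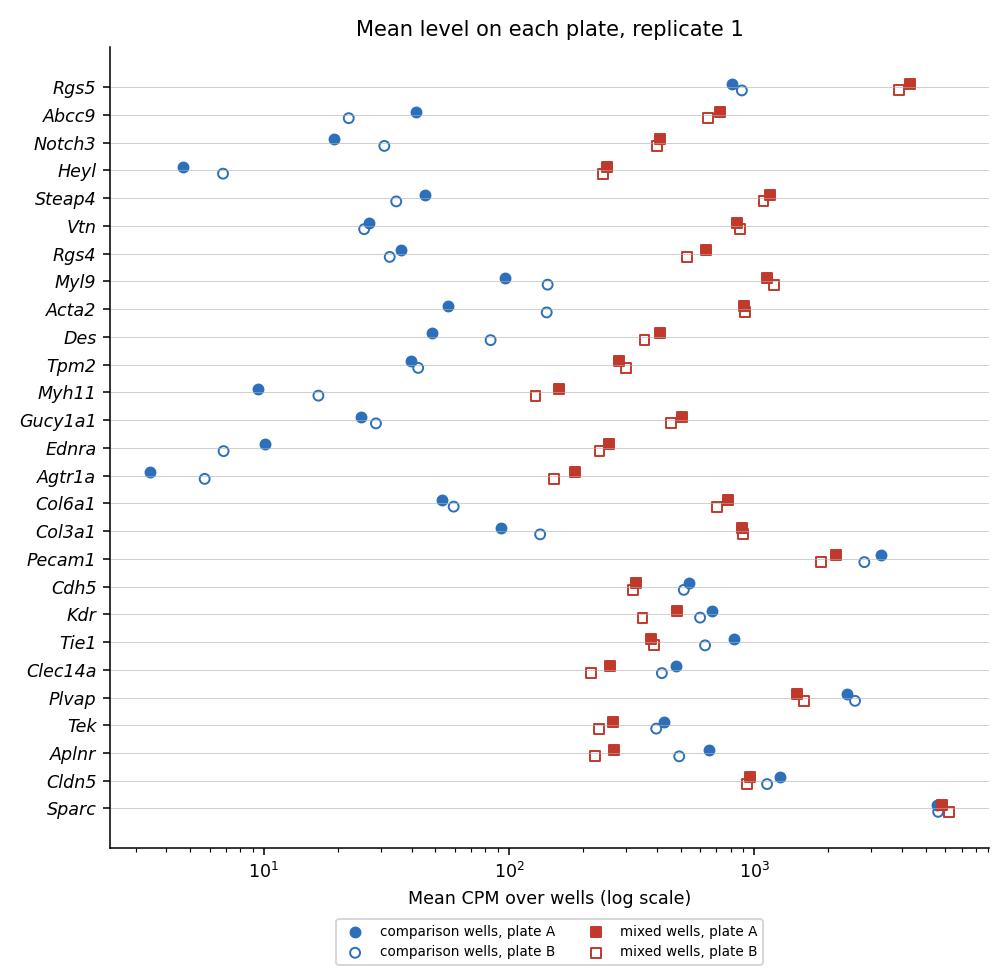
Mean level per class and plate of replicate 1 for mural, receptor, matrix and endothelial genes, in CPM on a log axis; each symbol is the mean over the wells of a class on a plate. Mural genes such as *Abcc9* (725 and 646 against 41.9 and 22.2 CPM) lie far apart between the classes and alike between plates, whereas endothelial genes such as *Pecam1* lie close together.

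Contractile genes were higher as well, with a smaller difference of the summed level. Of 30 listed genes, 24 were measured and 17 of these were at least 2-fold higher on both plates, 0 lower, beside 5.13% and 0.803% of all genes. Their median difference was 1.98. The summed CPM differed by 1.39 and 1.11, and by 1.88 and 2.07 in replicate 2. The sum exceeded the comparison median in 342 of 361 mixed wells, and 22 of 338 comparison wells exceeded the mixed median. *Myl9*, the regulatory myosin light chain of smooth muscle, had a lowest, median and highest value of 0, 954 and 5277 CPM in mixed wells and 0, 31.2 and 3854 CPM in comparison wells. At least 300 CPM of *Myl9* was present in 294 mixed wells and 37 comparison wells.

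*Myl9* was also the contractile gene most like *Acta2* across mixed wells by the lower of the 2 plate values, with Spearman correlations of 0.51 and 0.58. It lies on the plus strand of chromosome 2 at 156775420 to 156781658. The 250 bases before its RefSeq start (GRCm38.p6, chr2:156775214-156775463) held 1 CArG box, at 161 to 152 bases before the start, shown in capitals because serum response factor is the textbook regulator of contractile genes.
Myl9: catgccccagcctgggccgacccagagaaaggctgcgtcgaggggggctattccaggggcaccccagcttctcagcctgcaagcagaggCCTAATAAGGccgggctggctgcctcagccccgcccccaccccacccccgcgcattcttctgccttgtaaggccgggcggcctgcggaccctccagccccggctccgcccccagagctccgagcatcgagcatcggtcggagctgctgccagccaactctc
The box was found in 439 of 27025 promoter windows of this length (1.62%). It was present in 2 of 24 contractile windows (8.33%), those of *Myl9* and *Filip1l*, in 1 of 30 vasoactive windows (3.33%), that of *Trpc6*, and in 0 of 23 pericyte and 0 of 22 pan-endothelial windows. These matches are a description of the sequence.

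Other contractile genes were more variable. *Des*, the intermediate filament desmin, had 411 against 48.4 CPM on plate A and 356 against 84.0 CPM on plate B. *Tpm2*, β-tropomyosin, had 280 against 39.8 CPM and 299 against 42.6 CPM. *Myh11*, smooth muscle myosin heavy chain, had 160 against 9.42 CPM and 128 against 16.7 CPM, with a median of 6.25 CPM in mixed wells and 0 in comparison wells. *Myh11* was read in 38.1% of mixed and 8.31% of comparison wells after thinning (62.0% and 39.1% before). In contrast to these genes, *Tagln*, encoding transgelin and named after its values were seen, had a median of 82.7 CPM in mixed and 20.0 CPM in comparison wells, with plate differences of 0.55 and 0.67. In replicate 2 the means of *Tagln* were lower in mixed wells, with 86.4 against 250 CPM on plate A and 148 against 191 CPM on plate B. *Smtn*, encoding smoothelin, had 0.26 and -0.78, and *Csrp1*, a LIM protein, 0.03 and -0.09. *Cnn1*, encoding calponin, was read in 0 comparison wells and at a mean of 0.04 and 0 CPM in mixed wells, so the members of the list differed in size and direction.

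Genes through which mural cells respond to vasoactive signals were examined next. Of 38 matched genes, 24 were measured, 16 were at least 2-fold higher on both plates and 1 at least 2-fold lower, beside 5.13% and 0.803% of all genes. Their median difference was 3.82. The summed CPM differed by 1.97 and 1.78, and by 2.35 and 1.86 in replicate 2. *Gucy1a1* and *Gucy1b1* encode the subunits of the soluble guanylate cyclase that senses nitric oxide. *Gucy1a1* had 506 against 24.8 CPM on plate A and 457 against 28.6 CPM on plate B. *Gucy1b1* had 138 against 4.31 CPM and 122 against 5.24 CPM. Both subunits of the nitric oxide receptor were thus present in mixed wells and low in comparison wells.

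Receptors for constrictor signals differed among themselves, and *Tbxa2r*, the thromboxane receptor, had differences of 1.07 and -0.19. *Adra1b*, an adrenergic receptor, was near the floor, where the pseudocount of 1 CPM sets the size of its differences of 0.56 and 0.65. *Ednra* had a lowest, median and highest value of 0, 144 and 1576 CPM in mixed wells and 0, 0 and 564 CPM in comparison wells. *Agtr1a* had 0, 7.09 and 2336 CPM in mixed wells and 0, 0 and 358 CPM in comparison wells. *Avpr1a* had means of 143 against 3.45 CPM and 86.9 against 1.28 CPM. *Ednra* was therefore present in most mixed wells and *Agtr1a* at a high level in a smaller set, with at least 300 CPM in 83 wells. *Npy1r*, the neuropeptide Y receptor 1, had 83.9 against 3.57 CPM and 94.5 against 4.86 CPM.

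Among channels and downstream enzymes the directions were mixed. *Itpr1*, the calcium release channel of the endoplasmic reticulum, had differences of -0.56 and -0.17 (0.36 and 0.28 per spike-in read). *Ano1*, the calcium-activated chloride channel, had 316 against 6.01 CPM on plate A and 284 against 15 CPM on plate B. *Cacna1c*, the pore of the L-type calcium channel, had differences of 3.56 and 3.96. *Trpc6*, a cation channel, had 49.8 against 1.02 CPM and 53.3 against 3.86 CPM. *Pde5a*, the phosphodiesterase that degrades cyclic GMP, had 45.9 against 1.29 CPM and 44.9 against 2.22 CPM.

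A few vasoactive genes were level or lower. *Ednrb*, the endothelin receptor B, which endothelial cells also express, differed by 0.27 and 0.08. *Htr2a*, a serotonin receptor and the member at least 2-fold lower, had 13.5 against 35.4 CPM and 5.81 against 19.3 CPM. *Npr1*, the receptor for atrial natriuretic peptide, had 107 against 197 CPM and 87.8 against 188 CPM. *Htr2a* and *Npr1* were named after their values were seen.

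The ligands and receptors that join endothelium and mural cells were split by side. Of 17 endothelial-side genes, 16 were measured, 1 was at least 2-fold higher on both plates (5.13% of all genes) and 0 lower (0.803%), with a median difference of -0.54. Their summed CPM differed by -0.63 and -0.62, and per spike-in read by 0.01 and -0.13. *Pdgfb*, the ligand of PDGFRβ, had means of 174 against 187 CPM on plate A and 143 against 211 CPM on plate B. The median of *Pdgfb* was 29.0 CPM in mixed and 16.8 CPM in comparison wells, so mean and median differed in direction. In replicate 2 *Pdgfb* differed by -4.29 and -2.14.

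*Jag1*, a Notch ligand that both cell types can make, was the member that was higher, with 84.2 against 31.2 CPM and 63.6 against 25.3 CPM. *Dll4*, the Notch ligand of arterial and tip endothelium, had 299 against 519 CPM and 321 against 418 CPM, which per spike-in read was a difference of -0.07 and -0.06. *Tek*, the angiopoietin receptor Tie2, had 265 against 429 CPM and 233 against 398 CPM, with -0.01 and -0.31 per spike-in read. *Tie1*, its partner, had -1.11 and -0.70 on CPM and -0.42 and -0.19 per spike-in read. *Edn1*, encoding endothelin-1, had 0.82 and -0.59 and thus no common direction.

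On the mural side, 16 of 21 genes were measured, 5 were at least 2-fold higher on both plates (5.13% of all genes) and 0 lower (0.803%), with a median difference of 0.50. Besides *Heyl*, described above, these were *Itga7*, *Cdh2*, *Gjc1* and *Pdgfa*. *Itga7*, a laminin receptor subunit of muscle cells, had 325 against 18.7 CPM and 276 against 14.1 CPM. *Cdh2*, the N-cadherin of contacts between pericytes and endothelium, had 63.2 against 11.3 CPM and 46.7 against 2.91 CPM. *Gjc1*, encoding connexin 45, had 105 against 13.3 CPM and 92.1 against 19.0 CPM, and *Pdgfa* 42.5 against 12.1 CPM and 53.5 against 8.94 CPM. Of the 16, 9 were higher and 5 lower on both plates on CPM at any size, and 14 and 0 per spike-in read. *Cxcl12*, a chemokine, had 2140 against 2392 CPM and 2394 against 2532 CPM, and *Angpt2*, an angiopoietin, 324 against 232 CPM and 311 against 185 CPM.

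The vessel type of the endothelial content was described by artery, capillary and vein lists. Of 17 artery genes, all measured, 3 were at least 2-fold higher on both plates (5.13% of all genes) and 0 lower (0.803%), with a median difference of -0.21. The summed differences were 0.09 and 0.04, and -0.89 and 0.11 in replicate 2. The 3 genes were *Jag1*, described above, *Mgp* and *Gja4*. *Gja4*, encoding connexin 37, had a lowest, median and highest value of 0, 277 and 3380 CPM in mixed wells and 0, 11 and 4028 CPM in comparison wells. *Mgp*, matrix Gla protein, had 780 against 85.0 CPM and 1227 against 122 CPM. Both *Gja4* and *Mgp* are known in mural cells too. *Gja5*, encoding the arterial connexin 40, had 14.2 against 7.77 CPM and 24.8 against 11.8 CPM, and *Sox17*, an arterial transcription factor, 296 against 337 CPM and 366 against 430 CPM.

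In replicate 1, capillary genes were lower on CPM by about as much as the pan-endothelial genes. Of 16 measured genes, 0 passed 2-fold in either direction (5.13% of all genes higher, 0.803% lower). The median difference was -0.61 against 0.003 and 0.02 for all genes, and the summed difference of -0.52 and -0.50 became 0.14 and 0.03 per spike-in read. In replicate 2 the summed CPM differed by -0.03 and -0.38, beside -1.90 and -1.39 for the pan-endothelial list. *Gpihbp1*, which anchors lipoprotein lipase on capillaries, had a lowest, median and highest value of 0, 676 and 5744 CPM in mixed wells and 10.0, 1253 and 7021 CPM in comparison wells. *Cd36*, a fatty acid receptor, had 32.7, 1885 and 8094 CPM in mixed wells and 42.8, 3163 and 11910 CPM in comparison wells. *Lpl*, lipoprotein lipase, was the exception, with 347 against 158 CPM and 295 against 194 CPM. Mixed wells therefore held capillary genes at high levels, and *Gpihbp1* and *Cd36* overlapped widely between the classes.

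Vein genes included the endothelial genes with the lowest differences. Of 16 listed, 15 were measured, 4 were at least 2-fold lower on both plates (0.803% of all genes) and 2 higher (5.13%), with a median difference of -0.68. *Ackr1*, the chemokine receptor of venules, had 48.6 against 111 CPM and 53.6 against 198 CPM, which per spike-in read was -0.68 and -1.51. *Aplnr*, the apelin receptor, had differences of -1.28 and -1.14, with -0.60 and -0.61 per spike-in read. *Lrg1* had -1.05 and -1.03, with -0.83 and -0.62 per spike-in read. *Lbp*, lipopolysaccharide-binding protein, had 21.1 against 120 CPM and 26.2 against 127 CPM, and 27 comparison wells and 10 mixed wells held 300 CPM or more.

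Of the 15 vein genes, 11 were lower on both plates on CPM and 10 per spike-in read, while their summed level differed by -0.33 and -0.40 on CPM and by 0.22 and -0.04 per spike-in read. *Selp*, P-selectin, had differences of -0.78 and -1.03, and -0.60 and -1.10 per spike-in read. The 2 higher members were *Cpe*, carboxypeptidase E, with 972 against 149 CPM and 910 against 88.4 CPM, and *Nr2f2*, encoding COUP-TFII, with 127 against 48.9 CPM and 101 against 41.3 CPM. Both are known outside the endothelium as well.

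Junction genes were slightly lower on CPM. Of 24 measured genes other than *Cdh5*, 3 were at least 2-fold higher on both plates (5.13% of all genes) and 0 lower (0.803%), with a median difference of -0.39 and summed differences of -0.37 and -0.35, which became 0.31 and 0.16 per spike-in read. *Cldn5* had 959 against 1274 CPM on plate A and 931 against 1127 CPM on plate B, or 0.37 and 0.16 per spike-in read. *Jam2*, a junctional adhesion molecule, had 569 against 938 CPM and 468 against 800 CPM, or -0.02 and -0.29 per spike-in read. *Cdh13*, encoding T-cadherin, had 828 against 1368 CPM and 752 against 1202 CPM. The genes *Gja4*, *Cdh2* and *Gjc1*, described above, were the members that were higher.

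Basement membrane genes, made by both cell types, were higher for selected components. Of 28 measured genes, 11 were at least 2-fold higher on both plates (5.13% of all genes) and 0 lower (0.803%), with a median difference of 0.47 and summed differences of 0.60 and 0.59. *Col6a1*, a collagen VI chain, had 779 against 53.2 CPM and 701 against 59.4 CPM. *Lama2*, the laminin α2 chain of muscle basement membranes, had 95 against 2.03 CPM and 81.8 against 3.75 CPM. *Timp3*, an inhibitor of matrix metalloproteinases, had 2449 against 977 CPM and 2438 against 966 CPM. The endothelial laminin gene *Lama4* differed by 0.18 and 0.10, and *Sparc*, a matrix glycoprotein, had 5815 against 5534 CPM and 6227 against 5616 CPM. Of the genes named here *Lama2* and *Col6a1* thus differed most, while *Lama4* and *Sparc* were near level.

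*Aspn*, encoding asporin, had a lowest, median and highest value of 0, 391 and 3278 CPM in mixed wells and 0, 12.4 and 1658 CPM in comparison wells. *Postn*, encoding periostin, had 319 against 20.0 CPM and 272 against 31.8 CPM. *Bgn*, encoding biglycan, had 862 against 243 CPM and 811 against 258 CPM.

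Markers of other cell types were summed in each well. The fibroblast list was higher in mixed wells, with a median of 3289 CPM in mixed and 192 CPM in comparison wells, ranges of 60.2 to 51562 and 21.3 to 46405 CPM, and plate differences of 2.68 and 2.16. Of its 25 genes, 12 were measured and 9 were at least 2-fold higher on both plates (5.13% of all genes), and 11 members were under 10 CPM in mixed wells. The members that differed included *Gsn*, encoding gelsolin, with 1535 against 200 CPM and 1452 against 185 CPM, *Cd248* with 162 against 4.59 CPM and 178 against 5.57 CPM, and *Col3a1*, encoding collagen III, with 889 against 93.1 CPM and 896 against 134 CPM, all of which mural cells can express. *Col1a1*, encoding collagen I, had a lowest, median and highest value of 0, 247 and 8769 CPM in mixed wells and 0, 18.6 and 11868 CPM in comparison wells.

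Other fibroblast genes differed in size and direction. *Dpt*, encoding dermatopontin, was higher by 2.60 and 1.88, with 61 mixed and 12 comparison wells at 100 CPM or more. *Dcn*, encoding decorin, had a median of 5.61 CPM in mixed and 7.74 CPM in comparison wells, and means of 35 against 21.0 CPM and 60.0 against 46.2 CPM, with 19 and 4 wells at 100 CPM or more. *Lum*, encoding lumican, had 5.21 against 7.64 CPM and 16.1 against 25.3 CPM. *Pdgfra*, a receptor of fibroblasts and named after its values were seen, was read in 17 mixed and 15 comparison wells, at a mean of 1.53 and 2.96 CPM.

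Other lists, apart from the lymphatic list, were at or near 0 in the median well of both classes. The medians were 0 CPM in both for immune, keratinocyte, adipocyte and erythroid genes, 6.77 and 8.16 CPM for Schwann cell and melanocyte genes and 3.64 and 0 CPM for skeletal muscle genes. Lymphatic genes had 160 CPM in mixed and 21.3 CPM in comparison wells, and without the limit genes *Lyve1* and *Prox1* their summed CPM differed by 0.69 and 0.87, and by -0.79 and -0.06 in replicate 2. Of 5 measured lymphatic genes, *Thy1* and *Cp* were at least 2-fold higher on both plates (5.13% of all genes) and *Flt4* at least 2-fold lower (0.803%). *Lyve1* was read in 18 mixed and 13 comparison wells and *Prox1* in 16 and 16. Their part in the differences was not tested.

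Genes induced by dissociation were slightly higher, with 0 of 18 measured genes at 2-fold in either direction (5.13% of all genes higher, 0.803% lower) and summed differences of 0.26 and 0.11, and of -0.50 and 0.001 in replicate 2. *Fos* had 4735 against 4067 CPM and 4402 against 4327 CPM, and *Nr4a1* 1406 against 740 CPM and 1427 against 978 CPM. Both are transcription factors of the immediate early response. Their part in the other differences was not tested.

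**Figure D5:**
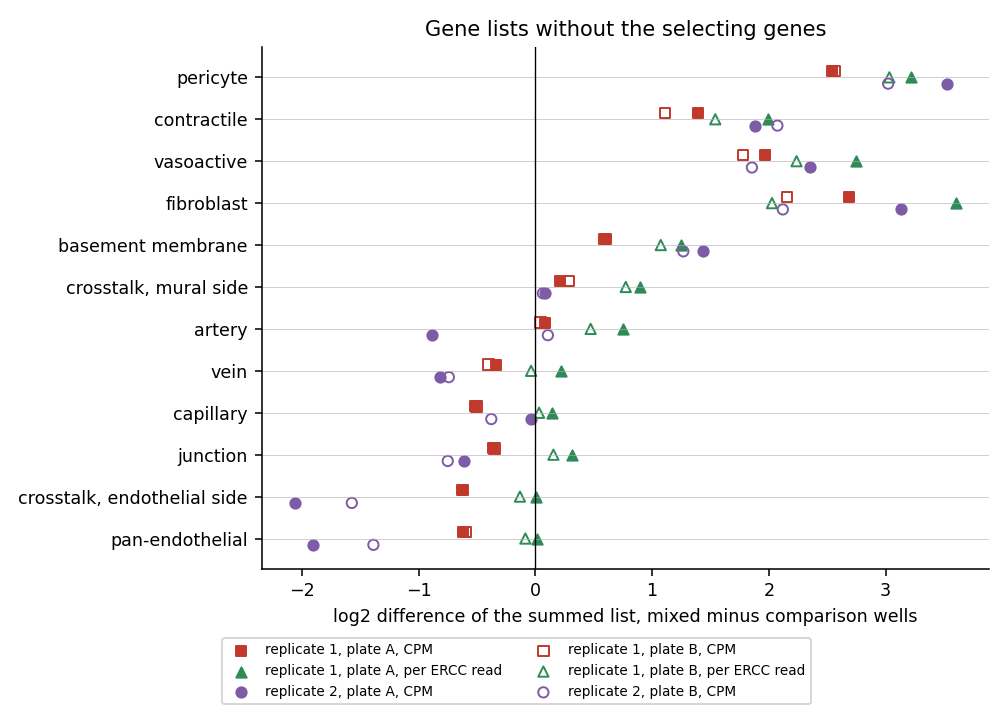
Log2 difference of the summed level of 12 gene lists between mixed and comparison wells, for each plate of replicate 1 on CPM and per ERCC read and for each plate of replicate 2 on CPM. The pericyte list (2.54 and 2.57 on CPM, 3.53 and 3.02 in replicate 2) lies to the right on every scale, whereas the pan-endothelial list moves from -0.62 and -0.59 on CPM to 0.02 and -0.08 per ERCC read.

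The 15 lowest genes, ranked by the plate with the smaller difference, were led by *Krt15* and *Krt14*, keratins of basal keratinocytes, with -3.80 and -2.91 and with -2.26 and -2.61, respectively. For *Krt15*, 99.1% of the summed CPM of the comparison class came from 5 wells, and for *Krt14* 91.6%. The share was lowest for *Eif2ak2*, at 35.1%, with 28 comparison and 10 mixed wells at 100 CPM or more. *Prnd*, encoding doppel, had 22 comparison wells and 7 mixed wells at 300 CPM or more. *Fam174b*, *Srms*, *Ccdc181*, *F2rl3*, *Pcsk6*, *Fancb*, *Rd3*, *Gpm6a*, *Sh3bgrl2*, *Eif2ak2* and *Trmt61b* were the others, with *Lbp*.

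The mixed wells varied among themselves in contractile genes. *Acta2* was below 100 CPM in 161 wells (44.6%), from 100 to 1000 CPM in 93 (25.8%) and at least 1000 CPM in 107 (29.6%), which are ranges of a continuous level and not cell types. In wells with at least 1000 CPM of *Acta2*, the mean of *Myl9* was 1976 CPM, compared to 706 CPM in those below 100 CPM. The means were 633 and 130 CPM for *Tpm2*, 288 and 79.2 CPM for *Myh11* and 1072 and 454 CPM for *Aspn*. The potassium channel genes had no common direction between the plates in these wells. *Kcnj8* had 1738 and 2036 CPM on plate A and 1838 and 1763 CPM on plate B. *Abcc9* had 588 and 805 CPM on plate A and 731 and 626 CPM on plate B. Over both plates the means were 1786 and 1897 CPM for *Kcnj8* and 658 and 714 CPM for *Abcc9*. *Rgs5* had 5728 and 3394 CPM and *Pecam1* 1717 and 2147 CPM.

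Correlations over mixed wells are given as a description over 187 wells on plate A and 174 on plate B. *Kcnj8* had a Spearman correlation of 0.40 and 0.34 with *Pdgfrb* and of -0.11 and -0.08 with *Acta2*. *Rgs5* correlated with *Acta2* at 0.34 and 0.44. Over all 9837 genes, ranked by the lower of the 2 plate values, those most like *Acta2* were *Myl9*, *Acta1*, *Tpm2*, *Tpm1* and *Mustn1*. The last 2 were named after their values were seen. *Acta1* is the skeletal muscle paralog of *Acta2* and may take reads from it, so its level is uncertain. Those most like *Kcnj8* were *Abcc9*, *Art3*, *Aspn*, *Steap4* and *Vtn*, of which *Art3* was named after its values were seen. CPM of genes in a well share 1 total and its depth.

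Summed lists, without the rule and gate genes, were compared in the same wells. The pericyte and pan-endothelial sums had a Spearman correlation of -0.34 and -0.36, and the pericyte and contractile sums of 0.56 and 0.55. *Rgs5* and *Pecam1* had -0.30 and -0.32. The arterial list was unrelated in level to the contractile list, with 0.09 and -0.04.

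The means of several genes differed between wells by the gene through which they passed. In the 38 wells the mean of *Abcc9* was 160 CPM, compared to 810 CPM in the 258 wells that passed through both genes and 507 CPM in the 65 that passed through *Kcnj8* alone. *Acta2* had 1537 CPM in the *Pdgfrb*-only wells and 844 CPM in those with both. *Myh11* had 406 and 127 CPM, with medians of 19.2 and 7.82 CPM, and *Gja5* 95.3 and 8.53 CPM, with a median of 0 in both. In contrast, *Steap4* had 561 and 1323 CPM, *Vtn* 403 and 966 CPM and *Col1a1* 174 and 546 CPM. In the *Kcnj8*-only wells these means were 803 CPM for *Acta2*, 62.1 CPM for *Myh11*, 677 CPM for *Steap4*, 704 CPM for *Vtn* and 243 CPM for *Col1a1*. The pericyte sum averaged 10116 CPM in *Pdgfrb*-only wells, 9507 CPM in *Kcnj8*-only wells and 14125 CPM in wells with both. These sets were divided by the rule itself.

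Replicate 2 differed from replicate 1 in its endothelial content under the same rule. Its 38 mixed wells had a median of 176 CPM of *Pecam1*, compared to 1274 CPM in its 363 comparison wells. The pan-endothelial sum was 4671 and 22680 CPM, with plate differences of -1.90 and -1.39. *Rgs5* had a median of 3979 CPM in the mixed wells, beside 3710 CPM in replicate 1, and *Acta2* 269 beside 284 CPM. The medians of several other mural genes were lower in replicate 2, with 326 beside 1545 CPM for *Kcnj8*, 531 beside 923 CPM for *Pdgfrb*, 140 beside 239 CPM for *Notch3* and 33.4 beside 504 CPM for *Abcc9*. The median was 0 CPM for *Vtn* and *Steap4* in replicate 2, beside 501 and 701 CPM in replicate 1. Other values were higher in replicate 2, with a median of 43.1 beside 6.25 CPM for *Myh11* and of 11673 beside 11170 CPM for the pericyte sum, and a mean of 526 beside 408 CPM for *Notch3* and of 732 beside 687 CPM for *Abcc9*. Depth differed as well, with 132991 reads in the median mixed well of replicate 2 and 196576 in that of replicate 1. The lower quartile was 7057.75 reads in replicate 2 and 133626 in replicate 1, and the lowest values were 2666 and 6697. Of the 38 wells, 11 held too few reads for thinning. In such wells a few reads set the CPM of a gene and other genes can drop to 0. The part of depth in these differences between replicates was not tested.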

How the data were processed

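Single cells of the ear dermis were measured by Smart-seq2 with ERCC spike-in RNA. The authors used TopHat2 2.1.1 to align single reads to GRCm38/mm10, SAMtools 0.1.18 to discard duplicates and Subread 1.4.6-p5 for counting, per the submitters' processing notes and the methods. They deposited 4 tables, 1 for each plate, of unnormalized read counts with genes in rows and wells in columns. Which annotation release was used is not given in the sources used here. Removing reads at identical positions limits the counts of short abundant genes.

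Of 46517 gene identifiers, 46005 were matched to a symbol and 512 were not, and the 92 ERCC rows stayed out of totals. Counts were scaled to CPM on genes, averaged over the wells of each class on each plate, and compared as log2 ratios with a pseudocount of 1 CPM. Genes with a mean of the class means of at least 10 CPM were measured. Called genes differed by at least 2-fold on both plates. No test was made, for the reasons in the report. Where wells are given as lowest, median and highest, both plates of replicate 1 are pooled. Thinning drew 20000 reads per well with a fixed seed. Exact intervals are Clopper-Pearson at 95%. The steps were tested on simulated data with known fold changes. Levels of different genes are not per length and are compared between classes, not between genes.

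The members, markers and 20 gene lists were chosen with earlier results of these data known. Named genes were the 5 markers, the limit and gate genes, up to 12 measured members of each list that differed most the same way on both plates and up to 4 that differed least, members with no read in a class, and the 25 highest and 15 lowest genes. Alternatives changed the limits of the rule, the scaling (TMM, ERCC reads, summed counts), the pseudocount, the filter, the depth and the plates. Promoters are from RefSeq (GRCm38.p6). Python 3.11.15, numpy 2.4.6, pandas 2.3.3, scipy 1.17.1, matplotlib 3.10.9, and R 4.3.3 with edgeR 4.0.16 (TMM factors only) were used.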

Additional observations from a re-analysis of the deposited data

How the results depend on the processing

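The number of mixed wells was 281 to 413 over 7 settings of the rule, against 361. The differences of the pericyte, contractile, fibroblast and pan-endothelial lists, as means over the plates, kept their sign under these alternatives. The sums of the other lists were compared only between scalings and with replicate 2. Per ERCC read the junction list went from -0.37 and -0.35 to 0.31 and 0.16, the capillary list from -0.52 and -0.50 to 0.14 and 0.03, and on plate A the vein list from -0.33 to 0.22 and the pan-endothelial list from -0.62 to 0.02. Genes at least 2-fold higher numbered 505, and 1419 with comparison wells below 10 CPM of the 5 genes, 1023 on ERCC scaling, 1034 without the filter, 177 at 50 CPM, 763 in replicate 2, and 847 to 1004 when a plate was left out. Genes at least 2-fold lower numbered 79, and 310, 15, 231, 13, 1581 and 419 to 516 under these settings, and 20 with a pseudocount of 10 CPM. With 1 plate, fewer genes are excluded for a difference on the other. The limit of 10 CPM kept a smaller set of comparison wells, since the median of *Kcnj8* over all 338 was 31.5 CPM. The pericyte difference of 2.56 (SD 0.016 over 2 plates) was 2.42 and 2.71 with limits of 100 and 1000 CPM, 2.60 with all 3 gate genes, 2.59 by *Kcnj8* alone and 2.64 by *Pdgfrb* alone. It was 2.98 (SD 0.565) with comparison wells below 10 CPM, 2.51 on TMM, 3.13 on ERCC, 2.59 for summed counts, 2.58 thinned and 3.28 in replicate 2. The pan-endothelial difference of -0.61 (SD 0.018) was -0.58 and -0.63 with limits of 100 and 1000 CPM, -0.63 by *Pdgfrb* alone, -0.58 with comparison wells below 10 CPM, -0.66 on TMM, -0.034 on ERCC, -0.57 for summed counts and -1.64 in replicate 2. The contractile difference of 1.25 (SD 0.20) was 1.77 on ERCC and 1.98 in replicate 2, and the fibroblast difference of 2.42 (SD 0.37) was 2.81 on ERCC and 3.98 with comparison wells below 10 CPM. The cause of these shifts was not tested. No paired analysis was possible because the results come from no test, and every difference is already taken within a plate. Depth limits genes of a few CPM, which in a well of 20000 reads are less than 1 read.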

Other observations

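*Rgs5* was also high in some comparison wells. Of these, 78 held at least 1000 CPM of *Rgs5* and 217 held below 300 CPM. *Pdgfrb* and *Kcnj8* were held below 100 CPM in both by the choice of wells. The medians of the former and the latter were 15.9 and 10.9 CPM for *Abcc9* and 24.3 and 17.5 CPM for *Steap4*. The means differed more, with 77.0 and 15.2 CPM for *Abcc9*, 95.2 and 22.6 CPM for *Steap4*, 253 and 40.0 CPM for *Acta2*, 70.1 and 11.7 CPM for *Notch3* and 41.3 and 4.29 CPM for *Higd1b*, the last named after its values were seen. The capillary gene *Gpihbp1* had medians of 1819 and 980 CPM, and *Rgcc*, also on the capillary list, 740 and 274 CPM. *Vwf*, encoding von Willebrand factor, had medians of 25.9 and 259 CPM and means of 336 and 534 CPM, while *Pecam1* had medians of 2904 and 3037 CPM.

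The 66 wells in neither class held a median of 56.4 CPM of *Pdgfrb*, 114 CPM of *Kcnj8*, 497 CPM of *Rgs5* and 1262 CPM of *Pecam1*. Their means of *Lyve1* and *Prox1* were 223 and 161 CPM, with a median of 0 CPM for both, and their median depth was 79901.5 reads. The 29 wells of replicate 2 with mural genes and too few endothelial genes held a median of 4536 CPM of *Rgs5*, 509 CPM of *Acta2*, 441 CPM of *Notch3*, 152 CPM of *Myh11* and 22.6 CPM of *Pecam1*, at 155060 reads.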
